A study of Mus musculus with 8 samples.

Results

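The 10 genes described here encode CC chemokines, small secreted proteins that draw monocytes, macrophages, eosinophils and lymphocytes into tissue: Ccl2, Ccl3, Ccl4, Ccl6, Ccl7, Ccl8, Ccl9, Ccl17, Ccl22 and Ccl24. They were chosen by name, as all probe sets whose only gene symbol is 1 of these, and were measured by 12 probe sets, among 18191 genes with such probe sets on the arrays. Total RNA came from lobe 1 of the right lung of outbred ICR males, aged 5 to 6 weeks, and was hybridized to 8 single-colour arrays. Through the trachea, under pentobarbital anaesthesia, each mouse was given 50 µl of the surfactant Pluronic F-68 (PF68) at 0.1%, with 0.5 mg of suspended single-walled carbon nanotubes (SWCNT) or without tubes. The 4 groups were SWCNT on day 1, PF68 on day 1, SWCNT on day 7 and PF68 on day 7, with 2 arrays each; no lung without an instillation is among them. The labels call the arrays biological replicates without saying how many mice each one stands for, so p-values measure the spread between these arrays.

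CC chemokines act through G-protein-coupled receptors on the cells they recruit, and many are released after tissue injury by macrophages, epithelial cells and dendritic cells. In mouse lung they are known for bringing blood monocytes through Ccr2, macrophages and T cells through Ccr1, eosinophils through Ccr3, and type 2 helper T cells and regulatory T cells through Ccr4. Inhaled particles and fibres that macrophages cannot digest are a classical setting in which these genes are studied. In whole-lung RNA, fewer cells of a type and less RNA per cell cannot be told apart.

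Most of these genes sit in clusters in the mouse genome. On chromosome 11, Ccl2 and Ccl7 are neighbours, Ccl8 lies between Ccl12 and Ccl1, and Ccl9, Ccl6, Ccl3 and Ccl4 follow one another after Ccl5. Ccl22 and Ccl17 flank Cx3cl1 on chromosome 8, and Ccl24 is next to Ccl26 on chromosome 5. Of the 10 genes, 6 matched an entry in the RefSeq promoter table of GRCm38.p6 (Ccl3, Ccl6, Ccl8, Ccl9, Ccl17 and Ccl22). The 150 bases before the annotated start are shown for the 3 genes that differed between SWCNT and PF68 lungs on day 7 and for Ccl6, the neighbour of Ccl9 and Ccl3, so that the promoters can be set beside the values below. Each runs 5′ to 3′ on the gene's own strand, and capitals mark matches to the motifs named after them.
Ccl9 (chr11:83578637-83578786, minus strand): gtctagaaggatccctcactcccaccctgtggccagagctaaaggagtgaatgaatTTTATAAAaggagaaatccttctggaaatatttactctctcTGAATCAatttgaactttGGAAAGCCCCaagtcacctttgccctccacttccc
Ccl6 (chr11:83593088-83593237, minus strand): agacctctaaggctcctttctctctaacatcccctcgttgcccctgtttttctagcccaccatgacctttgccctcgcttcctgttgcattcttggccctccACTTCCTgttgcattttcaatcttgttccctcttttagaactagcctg
Ccl8 (chr11:82115035-82115184, plus strand): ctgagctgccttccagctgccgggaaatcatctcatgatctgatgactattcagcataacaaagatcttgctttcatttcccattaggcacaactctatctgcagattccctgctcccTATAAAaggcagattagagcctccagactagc
Ccl3 (chr11:83649379-83649528, minus strand): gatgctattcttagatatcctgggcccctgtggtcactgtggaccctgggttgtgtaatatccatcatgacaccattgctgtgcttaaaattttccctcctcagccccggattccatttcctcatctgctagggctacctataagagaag

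All 250 bases before the start were searched on both strands for 7 motifs. The NF-kB motif, GGG and TTTCC with 2 bases between them, which 1.41% of 32851 RefSeq promoter windows of the same length hold, matched in Ccl9 as GGAAAGCCCC, 35 to 26 bases before the start. The AP-1 motif TGANTCA (6.75% of windows) matched in Ccl9, and the ETS and PU.1 motif AGGAAGT (7.69%) in Ccl6. The TATA motif TATAAA (12.4%) matched in Ccl8, 32 to 27 bases before the start, and in Ccl9, where matches on both strands overlap. The STAT motifs, TTC and GAA with 3 (7.02%) or 4 bases (5.85%) between them, matched only in Ccl17 among the 6 promoters, and the interferon response motif, GAAA and GAAA with 2 bases between them (2.98%), in none. Of the 15 pairs of these promoters, Ccl6 and Ccl9 shared the longest run, the 13 bases GCCCTCCACTTCC, which begin 55 bases before the start of Ccl6 and 14 before that of Ccl9. A match is a description of these letters and not a binding site.

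The deposited values are read as log2 signals; their base is not given in the sources used here, and another base would change every difference by 1 factor without changing a call. The median of every array was -0.628, and signals under it are treated as dim. All 10 genes passed a filter that asked for a signal not below the median on at least 2 of 8 arrays, which left 13854 genes. On all 8 arrays 5 of them lay above it (Ccl2, Ccl4, Ccl6, Ccl8 and Ccl9), whereas Ccl17 did so on 7, Ccl3 on 6, Ccl22 on 4, Ccl7 on 3 and Ccl24 on 2. The lung marker list, with surfactant and airway genes, had a mean signal of 6.29 to 6.54 on the 8 arrays, and all 10 of its genes passed the filter.

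**Figure D1:**
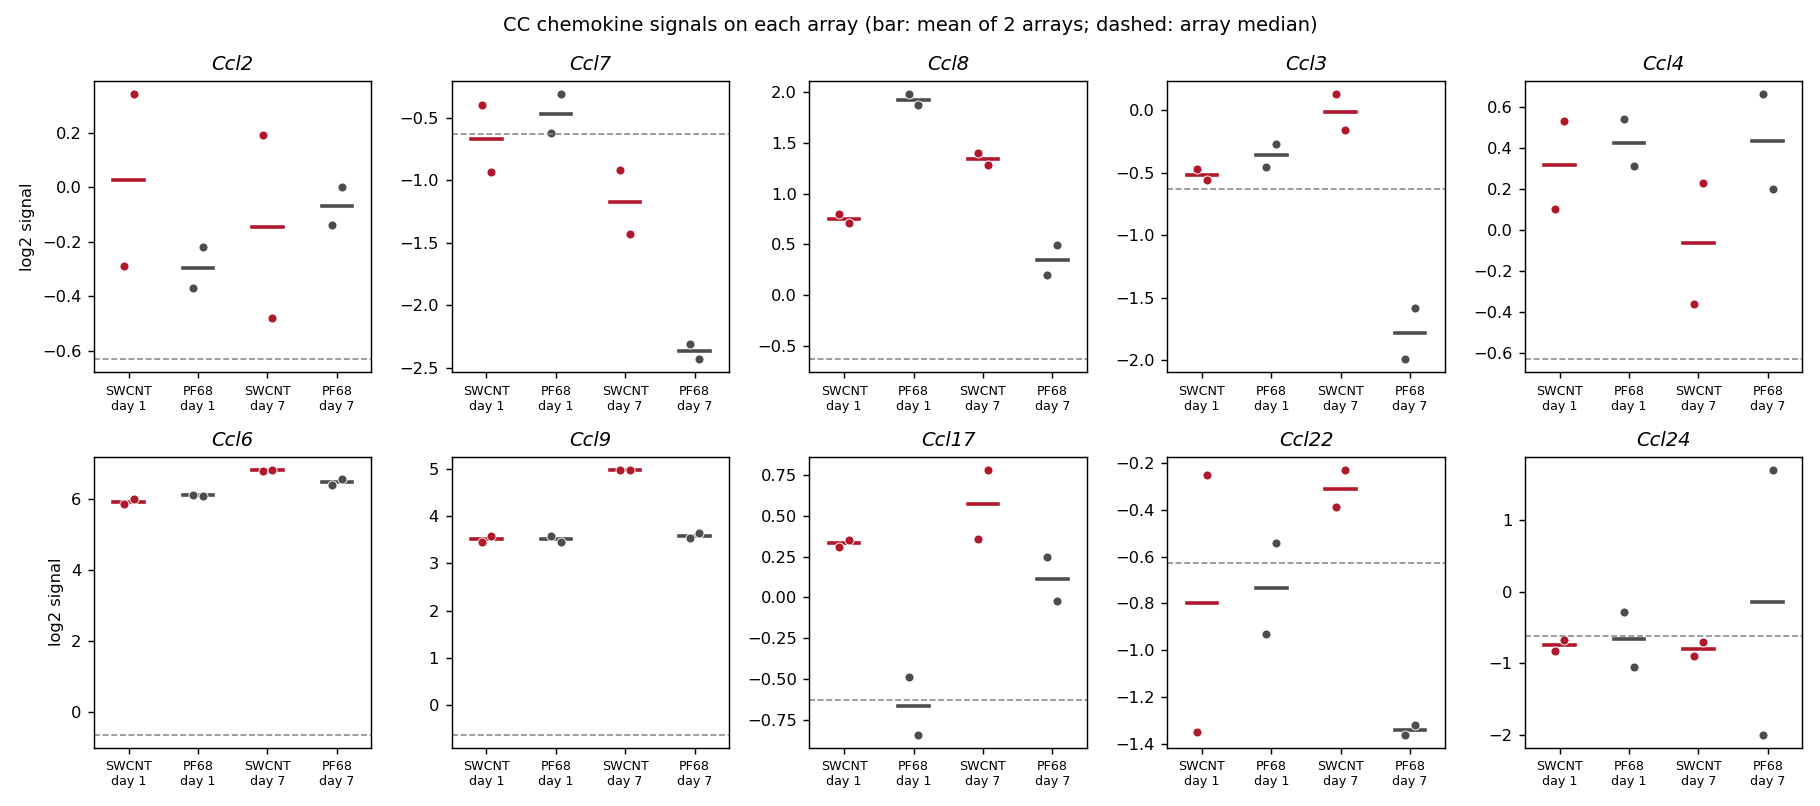
Log2 signal of each CC chemokine on each of the 8 arrays (points), with the mean of the 2 arrays of a group (bars) and the array median of -0.628 (dashed line); each panel has its own scale. Ccl9 lay at 4.98 and 4.97 in SWCNT lungs on day 7 and between 3.45 and 3.64 on the other 6 arrays, while Ccl8 was highest in PF68 lungs on day 1.

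On day 7, the sub-chronic time point of the study, 3 of the 10 CC chemokines were higher in SWCNT than in PF68 lungs, none was lower and 7 were not called. These were Ccl9 (2.63-fold), Ccl8 (1.99-fold) and Ccl3 (3.41-fold), at a Benjamini-Hochberg adjusted p under 0.05 in limma over all genes, which called 1.4% of genes as higher and 2.18% either way. Both PF68 signals of Ccl3 were under the array median, and with such values set to it Ccl3 was the smallest of the 3, at 1.53-fold. The median difference of the 10 genes was 0.73, beside 0.02 for all genes tested. Dim signals entered that 0.73. With values under the array median set to it, Ccl3 differed by 0.61 rather than 1.77, Ccl22 by 0.32 rather than 1.03 and Ccl7 by 0 rather than 1.20. Ccl24 then differed by -1.16 rather than -0.64, and the others did not change. The 2 groups of arrays did not overlap for 7 of the 10, all with SWCNT higher, as was so either way for 53.2% of all genes and with SWCNT higher for 28.2%. Leaving out any 1 of the 8 arrays ended all 3 calls, with adjusted p between 0.0616 and 0.124 for Ccl9, 0.0674 and 0.136 for Ccl3, and 0.0746 and 0.171 for Ccl8, with 5 to 6 members and 16.2% to 22.4% of all genes at an unadjusted p under 0.05. With the 4 day 7 arrays fitted alone, limma called no gene at all, with 18.0% of genes and 5 of the 10 members at an unadjusted p under 0.05.

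On day 1, the acute time point, 1 of the 10 was lower in SWCNT than in PF68 lungs, Ccl8 (0.446-fold), none was higher and 9 were not called, where limma called 1.23% of genes as lower and 2.17% either way. The median difference of the 10 genes was -0.1, beside -0.02 for all genes. The arrays of the 2 groups did not overlap for 4 of the 10, against 53.2% of all genes. The Ccl8 call ended without any 1 of the 4 day 1 arrays or of the 2 SWCNT day 7 arrays, with adjusted p up to 0.165. With the 4 day 1 arrays alone its adjusted p was 0.0815.

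**Figure D2:**
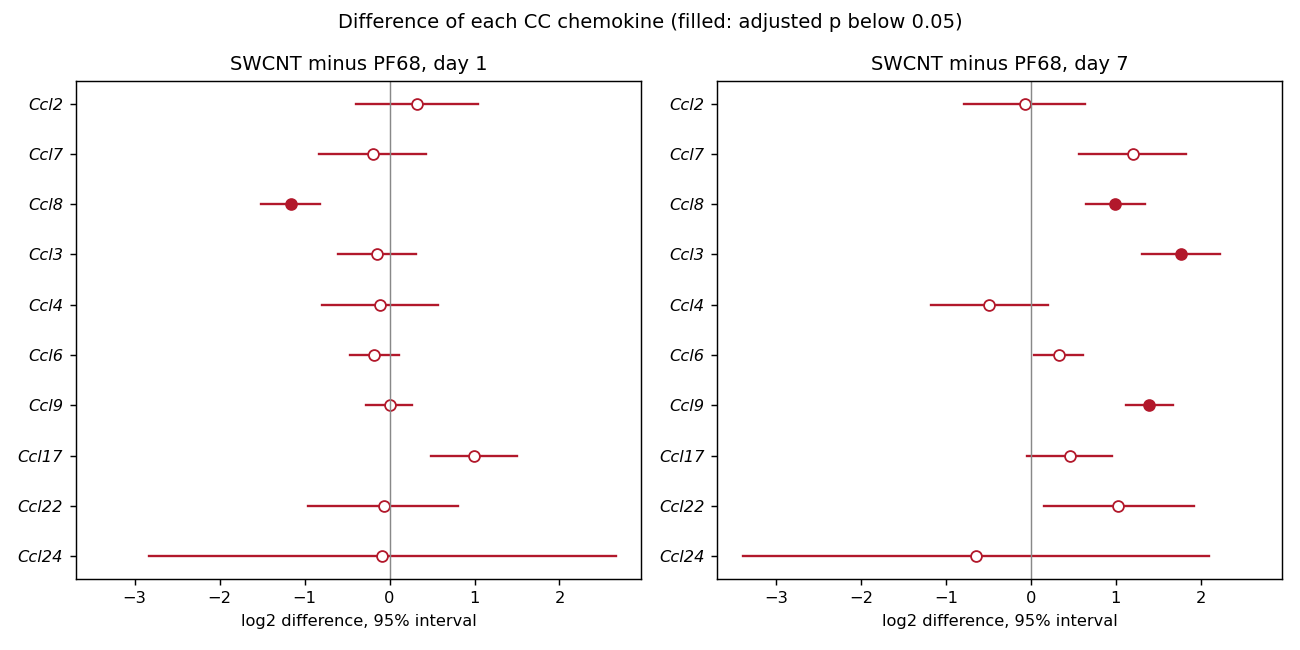
Log2 difference, SWCNT minus PF68, of each CC chemokine on day 1 (left) and day 7 (right), with the 95% interval from limma; filled points have an adjusted p under 0.05. Ccl8 lay at -1.16 on day 1 and 0.99 on day 7, and Ccl3 and Ccl9 had intervals above 0 on day 7 and across 0 on day 1.

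Among the ligands of the monocyte chemoattractant group, Ccl8 was called on both days, lower in SWCNT lungs on day 1 and higher on day 7. The differences of Ccl12, given below, had the same signs without a call. Ccl8, which in the mouse signals through Ccr8 and is known for recruiting type 2 helper T cells, had signals of 0.80 and 0.71 in SWCNT lungs on day 1, against 1.98 and 1.87 in PF68 lungs. Its day 1 difference was -1.16 ± 0.14 (standard error from the moderated variance, adjusted p = 0.0224). On day 7 it had 1.40 and 1.28 in SWCNT lungs, against 0.20 and 0.49 in PF68 lungs. Both SWCNT arrays thus lay below both PF68 arrays on day 1 and above them on day 7. The day 7 difference was 0.99 ± 0.14 (adjusted p = 0.0392), and the difference between the 2 days' effects was 2.16 ± 0.20 (adjusted p = 0.0156). In that test 3 of the 10 were called, all with the higher effect on day 7, where limma called 1.41% of all genes in that direction and 2.34% either way. The Ccl8 call between days ended without any 1 of 6 arrays and remained without either PF68 day 7 array (adjusted p between 0.0363 and 0.0994).

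Ccl2, the main ligand of Ccr2 and a standard marker of monocyte recruitment, was not called in any comparison. It had -0.29 and 0.34 in SWCNT lungs on day 1, against -0.37 and -0.22 in PF68 lungs, and 0.19 and -0.48 in SWCNT lungs on day 7, against -0.14 and 0.00 in PF68 lungs. The day 7 difference was -0.07 with a 95% interval of -0.79 to 0.64, and that of day 1 was 0.32 (-0.40 to 1.04). The SWCNT arrays spread more widely than the PF68 arrays on both days, and the groups overlapped on both.

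Ccl7, a second Ccr2 ligand that also binds Ccr1 and Ccr3, was dim on most arrays. On day 7 its signals were -0.92 and -1.43 in SWCNT lungs, against -2.31 and -2.43 in PF68 lungs, so all 4 lay under the array median. The difference of 1.20 ± 0.26 was not called (adjusted p = 0.0713) and is 0 once values under the median are set to it. On day 1 Ccl7 had -0.40 and -0.93 in SWCNT lungs, against -0.62 and -0.31 in PF68 lungs, a difference of -0.20 ± 0.26 with overlapping groups.

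Ccl3 and Ccl4 (macrophage inflammatory proteins 1-alpha and 1-beta) are neighbouring genes of inflammatory chemokines, and of the pair Ccl3 alone was called on day 7. On day 7 Ccl3 had 0.13 and -0.16 in SWCNT lungs, against -1.99 and -1.58 in PF68 lungs. The 2 PF68 day 7 arrays were the only ones of the 8 on which Ccl3 was under the array median. The difference was 1.77 ± 0.19 (adjusted p = 0.0246), or 0.61 from the array median. The difference between the days' effects was 1.92 ± 0.26 (adjusted p = 0.0366), or 0.77 with such values set to the median. On day 1 Ccl3 had -0.47 and -0.56 in SWCNT lungs, against -0.45 and -0.27 in PF68 lungs, a difference of -0.15 ± 0.19 that was not called (adjusted p = 0.724). The call between days was lost without any 1 of the 8 arrays (adjusted p between 0.0602 and 0.145).

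Ccl4 had -0.36 and 0.23 in SWCNT lungs on day 7, against 0.66 and 0.20 in PF68 lungs. On day 1 it had 0.10 and 0.53 in SWCNT lungs, against 0.54 and 0.31 in PF68 lungs. The groups overlapped on both days, and the differences of -0.49 ± 0.28 on day 7 and -0.11 ± 0.28 on day 1 were not called. The 95% interval of the day 7 difference was -1.18 to 0.20. Ccl3 and Ccl4 were not tested against each other.

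Ccl6 and Ccl9 are rodent chemokines of macrophages and other myeloid cells that act on Ccr1, and each had 2 probe sets. The brighter Ccl9 probe set (1417936_at) had 4.98 and 4.97 in SWCNT lungs on day 7, against 3.54 and 3.64 in PF68 lungs. On day 1 it had 3.45 and 3.57 in SWCNT lungs, against 3.58 and 3.45 in PF68 lungs. The day 7 arrays of the 2 treatments were far apart relative to the spread within them, and those of day 1 overlapped with a fold of 0.998. The day 7 difference was 1.39 ± 0.11 (adjusted p = 0.0147), and the difference between the days' effects was 1.40 ± 0.16 (adjusted p = 0.0249, or between 0.0588 and 0.122 without any 1 of the 8 arrays). In the dimmer Ccl9 probe set (1448898_at) the difference between the days' effects, 1.40 ± 0.25, was not called (adjusted p = 0.0782). That probe set had 1.98 and 2.13 in SWCNT lungs on day 7, against 0.36 and 0.22 in PF68 lungs, a difference of 1.77 ± 0.18 (adjusted p = 0.0343 with every kept probe set fitted). Both probe sets gave a higher day 7 signal in SWCNT lungs, but the dimmer one differed from the brighter one in time: its values on day 1 were 1.71 and 2.06 in SWCNT lungs, against 1.39 and 1.64 in PF68 lungs.

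The brighter Ccl6 probe set (1417266_at) had 6.81 and 6.83 in SWCNT lungs on day 7, against 6.41 and 6.58 in PF68 lungs, and its difference of 0.33 ± 0.12 was not called (adjusted p = 0.175). The other (1420249_s_at) had 6.07 and 6.07 in SWCNT lungs, against 4.85 and 4.8 in PF68 lungs, a difference of 1.25 ± 0.12 (adjusted p = 0.0343). The 2 probe sets thus had the same sign and disagreed on the call and on the size. The suffix of the second marks a set of probes that can bind related transcripts. On day 1 the brighter set had 5.86 and 6.00 in SWCNT lungs, against 6.12 and 6.10 in PF68 lungs, a difference of -0.18 ± 0.12 that was not called (adjusted p = 0.476). Across the days the SWCNT effect on the second probe set differed by 1.48 ± 0.16 (adjusted p = 0.038).

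**Figure D3:**
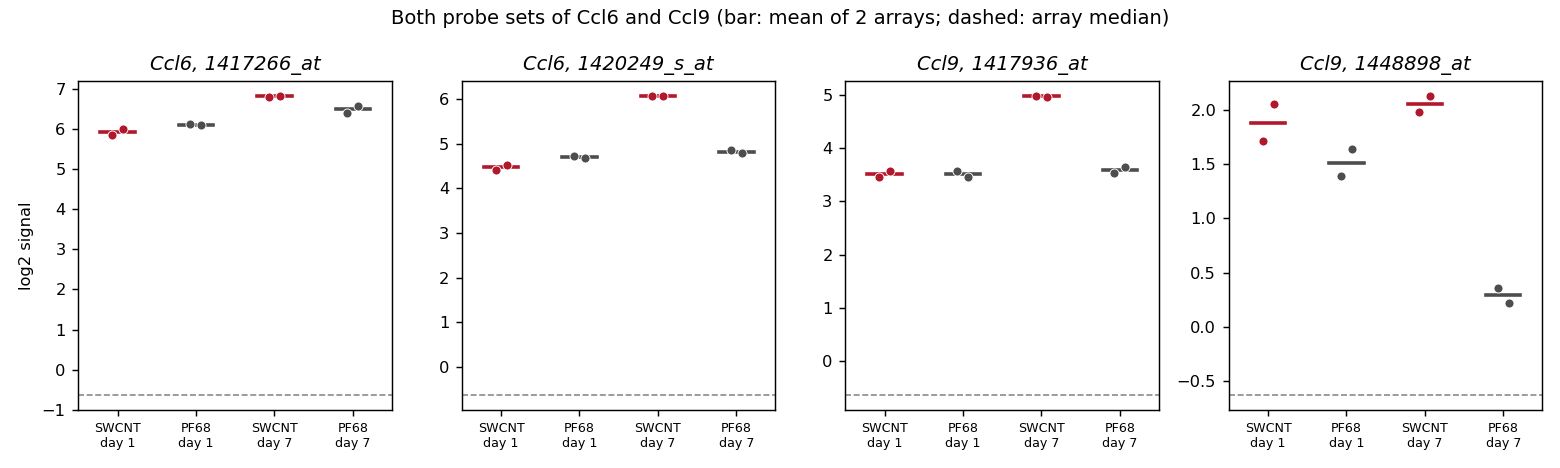
Log2 signal of both probe sets of Ccl6 (left pair) and Ccl9 (right pair) on each array, with group means (bars) and the array median (dashed line), each panel on its own scale. In all 4 panels the SWCNT arrays of day 7 lie above the PF68 arrays of that day, and the second Ccl9 probe set is lowest in PF68 lungs on day 7, at 0.36 and 0.22.

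Ccl17 and Ccl22 are the ligands of Ccr4, made by dendritic cells and by macrophages exposed to interleukin 4. Ccl17 had 0.31 and 0.35 in SWCNT lungs on day 1, against -0.49 and -0.84 in PF68 lungs. Its difference of 0.99 ± 0.20 was the largest positive one among the 10 on that day and was not called (adjusted p = 0.083). On day 7 it had 0.36 and 0.78 in SWCNT lungs, against 0.25 and -0.02 in PF68 lungs, a difference of 0.46 ± 0.20 (adjusted p = 0.251). The SWCNT arrays lay above the PF68 arrays on both days.

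Ccl22 had -0.39 and -0.23 in SWCNT lungs on day 7, against -1.36 and -1.32 in PF68 lungs. Both PF68 arrays were under the array median, and the difference of 1.03 ± 0.36 was not called (adjusted p = 0.168), or 0.32 from the median. On day 1 it had -1.35 and -0.25 in SWCNT lungs, against -0.93 and -0.54 in PF68 lungs, with overlapping groups. Ccl24 (eotaxin-2), an eosinophil chemoattractant acting on Ccr3, had -0.90 and -0.70 in SWCNT lungs on day 7, against -2.0 and 1.7 in PF68 lungs. The 2 PF68 arrays lay on either side of all others, so the 95% interval of the difference ran from -3.39 to 2.10. Without the first PF68 day 7 array that difference was -2.49, and without the second it was 1.20, neither called. On day 1 Ccl24 had -0.83 and -0.68 in SWCNT lungs, against -0.29 and -1.05 in PF68 lungs.

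Day 7 was also compared with day 1 within each treatment. In SWCNT lungs Ccl9 (2.77-fold), Ccl6 (1.85-fold) and Ccl8 (1.5-fold) were higher on day 7, none was lower and 7 were not called, where 9.59% of all genes were called as higher and 16.3% either way. In PF68 lungs Ccl8 (0.335-fold), Ccl7 (0.266-fold) and Ccl3 (0.372-fold) were lower on day 7, none was higher and 7 were not called, where 8.86% of all genes were called as lower and 17.7% either way. The day 7 signals of Ccl7 and Ccl3 were under the array median, and with such values set to it their log2 differences were -0.17 and -0.27. These comparisons reuse the arrays of the comparisons between treatments: the PF68 day 7 arrays enter both the day 7 difference and the change in PF68 lungs. Medians of the 10 genes were 0.37 in SWCNT lungs and 0.04 in PF68 lungs, beside 0.09 and 0.04 for all genes.

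Ccl9 was higher on day 7 by 1.47 ± 0.11 in SWCNT lungs (adjusted p = 0.00514), a call that was kept without any 1 of the 8 arrays (highest adjusted p 0.0473). Ccl6 was higher by 0.89 ± 0.12 (adjusted p = 0.00981), and lost its call without any 1 of the 4 SWCNT arrays (highest adjusted p 0.0657). Its second probe set gave 1.60 ± 0.12 (adjusted p = 0.00577). The second Ccl9 probe set did not follow the first in time, with 0.17 ± 0.18 in SWCNT lungs (adjusted p = 0.567) and -1.22 ± 0.18 in PF68 lungs (adjusted p = 0.0153), where the first gave 0.07 ± 0.11. Ccl8 was higher by 0.58 ± 0.14 in SWCNT lungs (adjusted p = 0.043), a call lost without any 1 of 6 arrays (highest adjusted p 0.178) and kept without either PF68 day 7 array.

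In PF68 lungs Ccl8 was lower on day 7 by a log2 difference of -1.58 ± 0.14 (adjusted p = 0.00753), Ccl7 by -1.91 ± 0.26 (adjusted p = 0.0109) and Ccl3 by -1.43 ± 0.19 (adjusted p = 0.0108). All 3 calls were lost without either PF68 day 1 array, with adjusted p up to 0.0742 for Ccl3 and Ccl7 and 0.0681 for Ccl8. They were kept without any 1 of the other 6 arrays. With only the 4 arrays of a treatment in the fit, no member was called in either treatment, with 4 of the 10 in SWCNT lungs and 5 in PF68 lungs at an unadjusted p under 0.05 in limma, beside 32.2% and 29.3% of all genes.

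**Figure D4:**
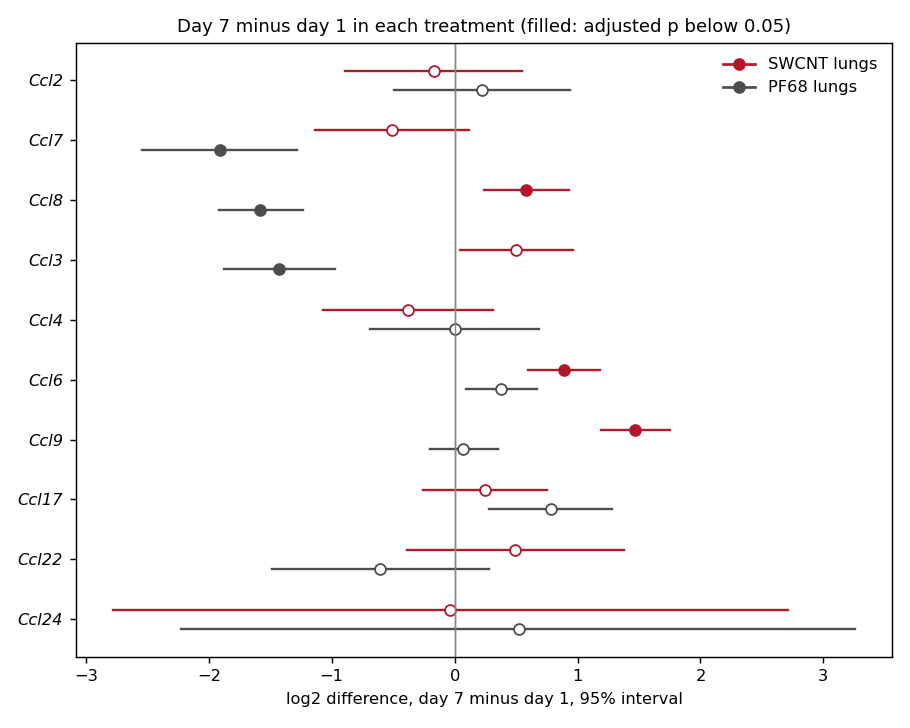
Log2 difference, day 7 minus day 1, of each CC chemokine in SWCNT lungs (red, upper of each pair) and PF68 lungs (grey, lower), with 95% intervals from limma; filled points have an adjusted p under 0.05. Ccl8 lies at 0.58 in SWCNT lungs and -1.58 in PF68 lungs, and Ccl9 at 1.47 in SWCNT lungs and 0.07 in PF68 lungs.

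Of 9 receptors on a list for these ligands, 5 passed the filter, and none was called between SWCNT and PF68 lungs on either day. Ccr3, Ccr4 and Ccr8 reached the array median on at most 1 array and were not tested. Ccr1, the receptor of Ccl3, Ccl6 and Ccl9, had 1.46 and 1.53 in SWCNT lungs on day 7, against 1.25 and 1.10 in PF68 lungs, a difference of 0.31 ± 0.15 (adjusted p = 0.266). Ccr2, the receptor of Ccl2 and Ccl7, had 0.05 and 1.08 in SWCNT lungs on day 7, against 1.87 and 1.46 in PF68 lungs, a difference of -1.10 ± 0.47 (adjusted p = 0.234). Neither difference passed the test, and other kept probe sets of these genes gave 0.36 for Ccr1 and -0.76 and -0.97 for Ccr2, none called. Ccrl2, an atypical receptor that binds chemerin, differed by -0.92 ± 0.31 on day 1 (adjusted p = 0.204) and -0.08 on day 7. Ackr1, a scavenging receptor of red cells and venules, differed by 0.11 on day 1 and -0.17 on day 7. Ackr2, which clears inflammatory CC chemokines, differed by 0.48 ± 0.13 on day 1 (adjusted p = 0.149) and -0.17 ± 0.13 on day 7. Its other kept probe sets gave 0.92 and 0.50 on day 1 and, with the opposite sign, 0.38 and 0.44 on day 7, none called. Ackr2 was lower on day 7 than on day 1 in SWCNT lungs (-1.30 ± 0.13, adjusted p = 0.00706) and in PF68 lungs (-0.64 ± 0.13, adjusted p = 0.029). The first of these calls was lost without either SWCNT day 7 array (highest adjusted p 0.0552), and the PF68 one without any 1 of 5 arrays (highest 0.14), with its sign turned by scaling to Actb and Gapdh.

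Of 10 other CC ligands, 6 passed the filter, of which 1 was lower and none higher on day 1, and none was called on day 7. Ccl5, a ligand of Ccr1 and Ccr3 made by T and NK cells, had 1.90 and 1.46 in SWCNT lungs on day 1, against 3.30 and 3.36 in PF68 lungs. It was lower by a difference of -1.65 ± 0.17 (adjusted p = 0.0157), beside -0.28 ± 0.17 on day 7 (adjusted p = 0.38). The day 1 call was lost without either PF68 day 1 array or the second SWCNT day 1 array (highest adjusted p 0.134). Ccl12, a mouse Ccr2 ligand whose gene neighbours Ccl8, had -0.31 and -1.42 in SWCNT lungs on day 1, against 0.46 and 0.67 in PF68 lungs, and 0.13 and -0.09 in SWCNT lungs on day 7, against -0.96 and -0.74 in PF68 lungs. Its differences of -1.43 ± 0.36 and 0.87 ± 0.36 were not called (adjusted p = 0.121 and 0.218). Nor was the difference between the days' effects in limma, 2.3 ± 0.5 (adjusted p = 0.0788). In PF68 lungs Ccl12 (-1.41 ± 0.36, adjusted p = 0.0465) and Ccl5 (-1.38 ± 0.17, adjusted p = 0.0101) were lower on day 7 than on day 1. These calls were lost without either PF68 day 1 array, with adjusted p up to 0.18 for Ccl12 and 0.0718 for Ccl5, and that of Ccl12 also without any 1 day 7 array. Ccl20, Ccl25, Ccl27a and Ccl28 were called in no comparison; Ccl1 and Ccl11 did not pass the filter, and Ccl19 and Ccl21a were not analysed here.

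Genes of pathways that induce these chemokines, inhibitors such as Tnfaip3 among them, were described by 2 lists. Of 11 tested genes of the NF-kB, interleukin 1 and TNF list, 1 was lower on day 1 and none was called on day 7. Il6, an inflammatory cytokine, had -0.51 and -0.85 in SWCNT lungs on day 1, against 0.23 and 0.26 in PF68 lungs (-0.92 ± 0.15, adjusted p = 0.0499). The cytokine was also lower on day 7 than on day 1, by -0.91 in SWCNT lungs (adjusted p = 0.0166) and -1.95 in PF68 lungs (adjusted p = 0.00638). All 4 day 7 signals of Il6 lay under the array median, and with such values set to it these differences were -0.06 and -0.87. Tnfaip3, an inhibitor of NF-kB signalling, was higher on day 7 than on day 1 in SWCNT lungs (0.73 ± 0.17, adjusted p = 0.0394). Of 7 tested genes of the type 2 list, Crlf2, a subunit of the TSLP receptor, was lower on day 1 (-0.68 ± 0.10, adjusted p = 0.0426), and none was called on day 7. In SWCNT lungs Crlf2 was higher on day 7 than on day 1 (1.17 ± 0.10, adjusted p = 0.00622) and Il4ra, the interleukin 4 receptor subunit, was lower (-1.27 ± 0.14, adjusted p = 0.00728). The day 1 calls of Il6 and Crlf2 were lost without any 1 of the 8 arrays, with adjusted p between 0.0754 and 0.243 for Il6 and 0.0676 and 0.227 for Crlf2. Between the days, the calls of Il6 in PF68 lungs were lost without either PF68 day 1 array (highest adjusted p 0.0681), those of Il6 in SWCNT lungs without any 1 of 3 arrays (0.0905), of Tnfaip3 without any 1 of the 4 SWCNT arrays (0.164), of Il4ra without either SWCNT day 7 array (0.0552) and of Crlf2 without the second of these (0.0552). Il4 and Il13 reached the array median on at most 1 array.

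The genes most like each chemokine called on day 7 were found by the root mean square difference of centred log2 values over the 8 arrays, among 13853 other genes. Those nearest to Ccl9 were Olr1 (a scavenger receptor for oxidized lipoprotein, 0.101), Cd84 (a SLAM family receptor, 0.139) and Clec7a (a beta-glucan receptor, 0.207). Those nearest to Ccl3 were Top2a (0.189), Gpc3 (0.189) and Rbm48 (0.215), and those nearest to Ccl8 were Slc1a2 (0.163), Ube2c (0.201) and Dpm3 (0.216). The nearest of the 10 chemokines was Ccl6 at place 167 for Ccl9 (0.39), Ccl8 at 398 for Ccl3 and Ccl3 at 652 for Ccl8 (0.46 for both).

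Marker lists of other cells moved with the groups, and their part in these results was not tested. On day 7 Ccl3, Ccl8 and Ccl9 were higher in SWCNT than in PF68 lungs. Also higher were 2 of 8 tested macrophage genes, Cd68 by 1.61 and Gpnmb by 2.23. The macrophage list's mean signal was 2.88 to 2.91 in SWCNT lungs, against 1.85 to 2.11 in PF68 lungs. Differences of its 8 tested genes ran from -0.02 to 2.41, with a median of 0.39. The alveolar macrophage list, with none of 9 called, had 3.68 to 3.70 in SWCNT lungs, against 3.36 to 3.38 in PF68 lungs. Of 8 monocyte genes Fn1 was higher and F13a1 lower on day 7, of 8 dendritic cell genes H2-DMb2 was lower, and of 9 neutrophil genes 5 were lower and Ltf was higher. Neutrophil list means were 1.68 to 1.76 in SWCNT lungs on day 7, against 2.54 to 2.56 in PF68 lungs.

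On day 1 Ccl8 was lower in SWCNT than in PF68 lungs. So were 2 of 8 monocyte genes (Ms4a4c and Plac8), 1 of 8 T cell genes (Cd3d) and 1 of 6 NK cell genes (Gzma). Monocyte list means were 1.58 to 1.59 in SWCNT lungs on day 1, against 2.0 to 2.16 in PF68 lungs, and those of T cells -0.71 to -0.66 in SWCNT lungs, against -0.09 to -0.06 in PF68 lungs. Genes of tissues other than lung were higher on the same arrays: 7 of 8 skeletal muscle genes, with list means of 3.20 to 3.28 in SWCNT lungs and -1.20 to -1.05 in PF68 lungs, 5 of 6 squamous epithelium genes and 2 of 3 adipocyte genes (Adipoq by 2.90 and Fabp4 by 1.64). Of other lists on day 1, neutrophil Ltf and B cell Ighm were higher, and neutrophil Ngp, B cell Jchain and alveolar macrophage Krt79 were lower. The eosinophil list had 3 of 8 genes past the filter and none called on either day; Epx and Prg3 were not tested.

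Signs of RNA quality also moved with the groups. The gap between the 3′ and 5′ probe sets of Actb, which widens as RNA degrades, was 1.31 and 1.36 in SWCNT lungs on day 1, against 2.04 and 2.01 in PF68 lungs. On day 7 it was 2.99 and 2.94 in SWCNT lungs, against 3.29 and 3.25 in PF68 lungs. The same gap of Gapdh was 0.752 and 0.68 in SWCNT lungs on day 1, against 1.05 and 1.03 in PF68 lungs, and overlapped on day 7, with 2.31 and 2.11 in SWCNT lungs, against 2.52 and 2.29 in PF68 lungs. Hybridization spikes averaged 4.92 and 4.96 in SWCNT lungs on day 1, against 4.72 and 4.72 in PF68 lungs, and 4.78 and 4.8 in SWCNT lungs on day 7, against 5.36 and 5.27 in PF68 lungs. Scaling to them would change every difference by -0.218 on day 1 and 0.528 on day 7. The part of these signs in the results was not tested. With that scaling, or with scaling to Actb and Gapdh (-0.436 and -0.222), all 13 called differences of the 10 chemokines kept their sign. For day 7 against day 1, scaling to the spikes would change every difference by -0.595 in PF68 lungs and 0.151 in SWCNT lungs. Scaling to Actb and Gapdh would change them by 0.677 and 0.891.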

How the data were processed

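The authors' deposited values, 1 per probe set and array, were taken as log2 signals; the submitters' processing notes name RMA, without version or settings. All 8 columns held the same sorted values, and no column of other samples was present. Control probe sets (64) and probe sets with a missing value (8) were left out. Gene names came from the platform annotation: 34939 probe sets had 1 symbol, 931 several and 9159 were not listed. A probe set was kept if not below the array median on at least 2 of 8 arrays, and a gene was represented by its kept probe set with the highest mean. The 4 group means were fitted with limma 3.58.1 in R 4.3.3 (4 residual and 1.81 prior degrees of freedom) and Benjamini-Hochberg adjustment over 13854 genes, threshold 0.05, after a test on simulated data. The number of arrays limits precision. All 10 members were named, with called genes and receptors of the ligand, receptor and inducer lists and the 3 nearest genes of each member called on day 7; marker lists were given by counts and means. Members and lists were chosen with earlier results of these data known. Further probe sets came from a fit of all kept probe sets, chosen after seeing the data. Alternatives covered filters, probe set choice, variance model, weights, replicate block, scaling and arrays left out.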

Additional observations from a re-analysis of the deposited data

Results flagged for a closer look

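The SWCNT effect of 3 CC chemokines differed between the days by a test of the difference itself, the interaction term in limma. The day 7 effect minus the day 1 effect was 1.92 for Ccl3 (adjusted p = 0.0366), 2.16 for Ccl8 (adjusted p = 0.0156) and 1.40 for Ccl9 (adjusted p = 0.0249). For Ccl3, whose PF68 day 7 signals were under the array median, it was 0.77 with values under the median set to it. The second Ccl9 probe set also gave 1.40 but was not called (adjusted p = 0.0782). Of all genes 2.34% were called in this test. For Ccl8 the effects had opposite signs, 0.99 on day 7 and -1.16 on day 1. For Ccl3 and Ccl9 the day 1 effect was not called. Both days have their own PF68 arrays, and in PF68 lungs Ccl8 and Ccl3 were lower on day 7 than on day 1, by log2 differences of -1.58 and -1.43 (-0.27 for Ccl3 with values set to the median). The Ccl3 and Ccl9 calls were lost without any 1 of the 8 arrays, and the Ccl8 call without any 1 of 6 arrays.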

How the results depend on the processing

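The 13 called differences of the 10 chemokines kept their sign in all 230 alternatives run on them and stayed called in 131. In many of these the estimate could not change, so the sign was fixed in advance. Such were the filters, the variance model, the replicate block, the 4 arrays alone and arrays left out of groups not compared. The kept sign is therefore no test of the differences there. Of 37 uncalled differences, 24 of 650 alternatives made a call. For day 1 the count of called members (1) was 0 without the filter on dim probe sets, where 0.676% of all genes were called. It was also 0 with the 4 arrays alone (0.411%), and 3 with scaling to Actb and Gapdh (29.7%). For day 7 it (3) was 1 without the filter (0.132% of all genes) and 0 with the 4 arrays alone, which called no gene. With scaling to the spikes it was 7 (42.5%). For the difference between the days it (3) was 1 without the filter (0.275%) and 6 with spike scaling (44.2%). For day 7 against day 1 in SWCNT lungs it (3) was 0 with the 4 arrays alone (0.0505%). It was 6 there with Actb and Gapdh scaling (70.4%). In PF68 lungs it (3) was 0 with the 4 arrays alone, which called no gene. It was 7 there with Actb and Gapdh scaling (4 higher and 3 lower, 53.3%) and 5 with spikes (42.8%). At an unadjusted p under 0.05, limma with the 4 arrays alone found 2 of the 10 and 18.8% of all genes on day 1, and 5 of the 10 and 18.0% on day 7; without the filter it found 2 and 14.2% on day 1. Leaving out 1 array left a group with 1 array, and in most such fits fewer of all genes were called too. The calls that members lost there are thus not particular to them. In these fits the day 7 difference lay between 1.34 and 1.44 for Ccl9, 1.56 and 1.98 for Ccl3, and 0.85 and 1.14 for Ccl8. The day 1 difference of Ccl8 lay between -1.22 and -1.11. The Ccl9 difference between days in PF68 lungs, 0.07 and uncalled, turned to -0.576 (adjusted p = 0.0446) with the mean of its probe sets, of which 1 fell, and to -0.522 (adjusted p = 0.0189) with spike scaling. Total genes called moved too: with the 4 arrays alone to 57 of 300 on day 1 and 0 of 302 on day 7, and with spike scaling to 5893 on day 7; the cause was not tested.

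Replicate numbers did not pair the arrays: deviations of same-numbered arrays correlated at -0.00605 to 0.0114 over the 6 pairs of groups. With the replicate block, 0 members were called on day 1, 0 on day 7, 0 between the days, 2 in SWCNT lungs and 3 in PF68 lungs, with 2, 6 and 6 at an unadjusted p under 0.05 in the first 3, beside 17.7%, 22.3% and 20.1% of all genes. The block called 0.736% of all genes on day 1, 0.108% on day 7 and 0.217% between the days. It called 12.5% of all genes in SWCNT lungs and 13.5% in PF68 lungs.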
